A study of Mus musculus with 12 samples.

Results

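The autophagy machinery and its cargo receptors were followed as a set of 37 genes, chosen by name and role and matched by symbol in the first column of the deposited count table. Earlier results of these data were known when the set was chosen. The 37 were found among 38087 gene models, and all 37 were among the 22384 models that passed the filter on low counts. They comprise 4 genes of the ULK initiation complex, 5 of the PI3-kinase complexes, 5 of membrane supply, 10 of conjugation, 5 of the ATG8 family, 4 cargo receptors and 4 HOPS tethering genes. Bulk polyA RNA of mouse sciatic nerve had been sequenced in 12 libraries, 3 per group. Control mice had the genotype Dhh-Cre-:Tfebflox/flox;Tfe3+, so both Tfeb alleles were floxed but no Cre was present. The mice called dKO here had the genotype Dhh-Cre+:Tfebflox/flox;Tfe3KO. In them Tfe3 was deleted throughout the animal and Tfeb in cells that express or descend from cells expressing Dhh, a Schwann cell lineage gene, so other nerve cells lacked Tfe3 alone. Injured nerve was the distal stump 5 days after transection, with the tissue next to the cut removed. Intact nerve was the uncut opposite nerve, taken at the same time from injured animals and stripped of its epineurium; stripping is stated only for intact nerves. Age and sex are not in the labels, and the labels do not say which libraries came from the same animal.

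Autophagy encloses cytoplasm in a double membrane and delivers it to the lysosome. The ULK kinase complex starts the process, a PI3-kinase complex marks the forming membrane, and WIPI, ATG2 and ATG9 proteins bring lipid to it. An enzyme cascade of the ubiquitin type attaches ATG8 proteins (the LC3 and GABARAP families) to that membrane, cargo receptors such as SQSTM1 (p62) link cargo to ATG8, and the HOPS complex tethers the finished autophagosome to the lysosome. TFEB and TFE3 are related transcription factors that bind E-box motifs in many lysosomal and autophagy genes. In injured nerve, Schwann cells are known to break down their own myelin in part by autophagy.

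Promoter windows of 3 members are shown because 2 of these genes (Atg3 and Vps33a) were lower in dKO nerve at 5 days and hold the full palindrome searched for, while Sqstm1, the member with the largest genotype difference at 5 days, holds no match. Each window is RefSeq sequence of GRCm38.p6 from 250 bases before to 50 bases after the annotated start, on the gene's own strand, with the motif in capitals. They lie at chr16:45158579-45158878 (plus strand, Atg3), chr5:123572966-123573265 (minus strand, Vps33a) and chr11:50210771-50211070 (minus strand, Sqstm1).
Atg3: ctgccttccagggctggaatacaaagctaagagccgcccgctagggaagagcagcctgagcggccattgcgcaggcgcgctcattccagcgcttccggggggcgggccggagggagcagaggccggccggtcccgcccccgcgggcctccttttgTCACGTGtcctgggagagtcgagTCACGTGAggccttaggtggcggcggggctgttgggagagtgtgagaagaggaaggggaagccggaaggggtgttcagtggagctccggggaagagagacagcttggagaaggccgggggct
Vps33a: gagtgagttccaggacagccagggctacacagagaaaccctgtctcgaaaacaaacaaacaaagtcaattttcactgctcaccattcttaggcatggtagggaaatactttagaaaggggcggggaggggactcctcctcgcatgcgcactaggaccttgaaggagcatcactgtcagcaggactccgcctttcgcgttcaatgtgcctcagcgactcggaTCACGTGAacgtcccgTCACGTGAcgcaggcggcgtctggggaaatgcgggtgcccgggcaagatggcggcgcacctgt
Sqstm1: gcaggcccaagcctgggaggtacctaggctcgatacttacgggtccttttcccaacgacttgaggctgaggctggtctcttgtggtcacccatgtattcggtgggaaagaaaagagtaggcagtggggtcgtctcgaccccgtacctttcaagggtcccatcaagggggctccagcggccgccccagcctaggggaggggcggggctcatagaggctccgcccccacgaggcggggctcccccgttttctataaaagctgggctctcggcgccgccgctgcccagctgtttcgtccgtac
The motifs searched, on both strands, were the E-box CACGTG, its extension TCACGTG and the palindrome TCACGTGA, each contained in the next longer one. RefSeq windows were found for 30 of the 37 members. The E-box was in the windows of 5 of these 30 (16.7%), namely Atg3, Atg5, Atg7, Atg14 and Vps33a, against 8.09% of all 27025 genes with a window. The windows of Atg7 and Atg14 lie wholly inside the gene as GENCODE M21 draws it, past its outermost start. For Atg7 the window begins at 114670846 and the gene at 114643097. TCACGTG was in 4 (13.3%, against 4.29%) and TCACGTGA in 2 (6.67%, against 1.12%). The E-boxes began 94 and 71 bases before the start of Atg3 and 28 and 12 bases before that of Vps33a. The motif did not mark the members called lower in dKO nerve at 5 days as a whole. Of these, Vps18 and Gabarap held no E-box, and no window was found for Pik3c3. Atg5, Atg7 and Atg14 hold an E-box but were not called, and all dKO libraries of Atg14 lay above all control libraries. A match describes letters in a window and does not show that a factor binds there.

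Library totals ran from 15430999 to 35845371 counts, and members took 0.276% to 0.326% of them, with 190 to 19195 counts per member and library. With every library thinned to 15430999 counts, reads fell on 159 to 345 of 1098 olfactory receptor genes in 4 libraries, against 50 to 78 in the other 8. These 4, called the second library set here, were all 3 dKO libraries at 5 days and replicate 4 of the control nerves at 5 days. A model with a term for this set therefore estimates the genotype difference at 5 days from that single control library against the 3 dKO libraries. In dKO nerve all injured libraries and no intact library belonged to this set, so injury and library set coincided there. Replicate 1 of the control nerves at 5 days alone had a high count of Xist, the X-inactivation transcript of females (10712 counts, at most 23 in any other library). It also had 7962 CPM summed over 3 red cell genes, against 176 and 503 CPM in the other control libraries at 5 days and at most 1220 CPM in dKO nerve. Counts cover whole gene models and no source used here gives the deleted exons, so Tfeb and Tfe3 counts do not check the genotypes. Tfeb had 22.6 to 26.9 CPM (read counts scaled to the size of the library, not to gene length) in control and 17.0 to 19.5 in dKO intact nerve, and 18.2 to 24.0 and 14.2 to 29.8 at 5 days. Tfe3 had 56.7 to 62.1 and 43.3 to 47.4 CPM in intact nerve, and 55.0 to 67.6 and 49.5 to 53.8 at 5 days. Neither passed the test for genotype at either time. Defining Schwann cell markers were abundant in intact nerve: the 7 myelin genes listed summed to between 76279 and 99748 CPM in all 6 intact libraries.

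Per length of exon, the ATG8 genes Gabarapl1, Gabarap and Map1lc3a and the receptor gene Sqstm1 were the 4 most abundant members in every group, and Rb1cc1, a scaffold, and Atg2b, a lipid transfer gene, the least abundant. In control intact nerve Gabarapl1, a GABARAP-type ATG8 protein, reached 195.6 ± 5.51 CPM per kb (SD, n = 3). Sqstm1 followed with 109.5 ± 12.5 and Gabarap with 106.0 ± 4.44 CPM per kb, and these neighbours did not differ beyond their spread. Map1lc3a, an LC3 gene, had 81.4 ± 6.88 CPM per kb. The next level was far lower, 28.3 ± 4.31 for Wipi1, followed by Nbr1 and Map1lc3b within its spread. Rb1cc1 and Atg2b were lowest with 2.42 ± 0.281 and 2.34 ± 0.0506 CPM per kb, also within their spread of each other. The order of the first 4 differed between groups: Gabarapl1 was first in both intact groups and the third in both injured groups, where Gabarap was first.

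**Figure D1:**
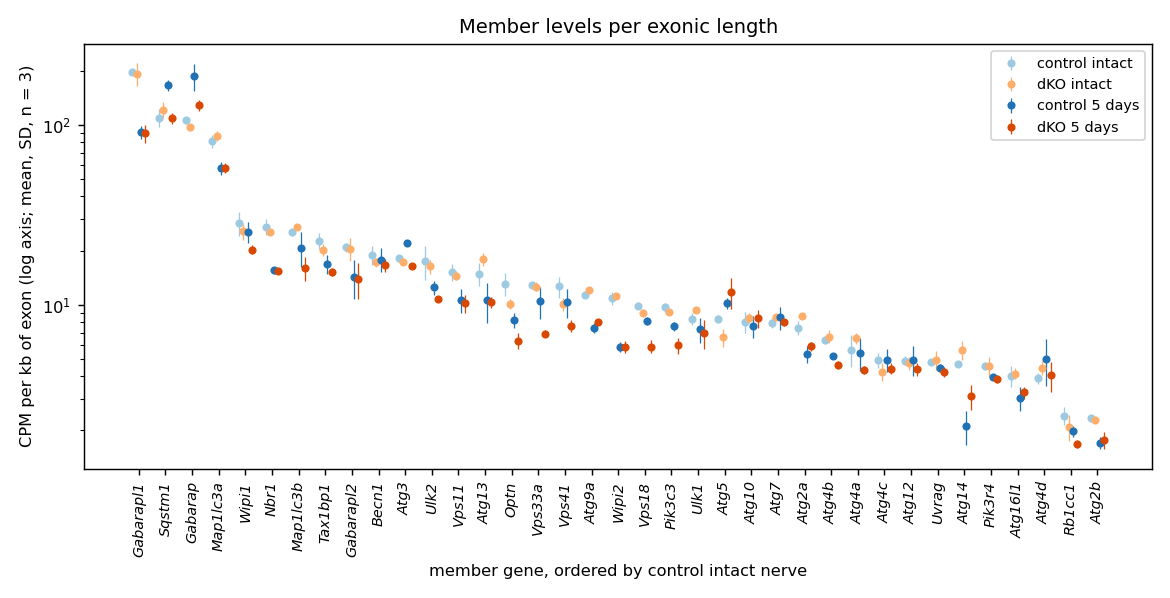
Level of each of the 37 members in CPM per kb of exon (log axis), as mean and SD of 3 libraries per group, ordered by control intact nerve. Gabarapl1, Sqstm1, Gabarap and Map1lc3a stand above the rest in every group, from 57.2 CPM per kb upward.

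Injury of control nerve was compared with the intact opposite nerve to ask how the set responded where TFEB and TFE3 were present. Most members that changed were lower in injured nerve: 18 of 37 were lower, against 22.4% of all models tested, and 3 were higher, against 24.4%. The median change of the members was -0.29 on the log2 scale, against 0.09 over all models. In 20 members all injured libraries lay below all intact ones, against 25.5% of all models, and in 4 all lay above, against 27.8%. The 3 that rose were Gabarap, Sqstm1 and Atg3, so the rises lay in the ATG8 family, the cargo receptors and conjugation, and each of these roles also had members that fell. Bulk RNA cannot tell fewer cells of a type from less RNA per cell, and the makeup of the nerve differed strongly: the 7 myelin genes summed to between 1071 and 1371 CPM in control nerve at 5 days, and 9 macrophage genes, 8 of them higher after injury, summed to between 307 and 450.1 CPM in intact and between 1361 and 2193 CPM in injured control nerve. The part of such shifts in the member changes was not tested.

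Initiation and early membrane genes fell or did not pass the test. Ulk2, a kinase of the initiation complex, had 86.9, 130.2 and 96.5 CPM in intact and 80.9, 75.5 and 67.4 CPM in injured control nerve, all injured libraries below all intact ones. Its log2 fold change was -0.49 (SE 0.13, adjusted p = 0.00801 by edgeR). Atg13, the regulatory partner of ULK, also fell (-0.48), whereas Ulk1 (-0.19) and the scaffold Rb1cc1 (-0.29) did not pass. Atg14, the subunit that directs the PI3-kinase to autophagy, fell from 20.1, 21 and 19.8 to 7.23, 11.2 and 9.04 CPM. With a log2 fold change of -1.15 (SE 0.18, adjusted p = 9.15e-05), this was the deepest fall among the members. The catalytic subunit Pik3c3 fell by 0.35 on the log2 scale, and Becn1, Pik3r4 and Uvrag did not pass. Wipi2, which binds the lipid made by that kinase and recruits the conjugation machinery, fell from 104, 122 and 117 to 57.6, 65.8 and 60.8 CPM (-0.90, SE 0.10, adjusted p = 2.79e-06). Both ATG2 genes and Atg9a fell as well, by 0.45 to 0.60, and Wipi1 did not pass (121, 145 and 108 against 122, 119.7 and 94.8 CPM). Becn1 cannot be measured on its own here: 43.9% of its exonic bases overlap Cntd1 on the opposite strand, whose counts were 87.7% to 94.7% of those of Becn1, and whether counting used the strand is not stated in the sources. For Atg9a, 32.6% of exonic bases overlap other genes.

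Most conjugation genes did not pass the test. Of the 10, 1 rose, 2 fell and 7 did not pass in control nerve. Atg3, the E2-like enzyme that hands ATG8 to the membrane lipid, had 55.6, 60.3 and 55.7 CPM in intact and 66.4, 70.5 and 71.4 CPM in injured control nerve. Its injured libraries all lay above the intact ones (0.28, SE 0.09, adjusted p = 0.0142), but the call was lost without control intact replicate 1, without control intact replicate 3 and with no filter on low counts (adjusted p up to 0.199). The protease Atg4b (-0.30) and Atg16l1 (-0.40), which places the conjugating complex on the membrane, were the pair that fell.

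Within the ATG8 family and among the receptors, close relatives went opposite ways. Gabarap, an ATG8 protein, had 205, 189 and 193 CPM in intact and 410.2, 312 and 306 CPM in injured control nerve. It rose by 0.81 (SE 0.12, adjusted p = 4.96e-05). Gabarapl1 fell from 403, 397 and 381 to 199.7, 183 and 169 CPM (-1.10, SE 0.12, adjusted p = 3.63e-06); 28.3% of its exonic bases overlap a transcript on the opposite strand. The groups did not overlap for either gene. The 5 ATG8 genes together summed to 923.8 ± 28.6 CPM (SD, n = 3) in intact and 783 ± 118 CPM in injured control nerve. Map1lc3a (-0.51) and Gabarapl2 (-0.54) fell, and Map1lc3b, the LC3 gene most used as an autophagy marker, did not pass (199, 190.4 and 181 against 194, 148 and 126 CPM). Sqstm1 was the receptor that rose, from 416, 341 and 346 to 601, 543 and 521 CPM (0.59, SE 0.11, adjusted p = 0.000623). The other 3 receptors fell. Nbr1, which like SQSTM1 binds both ubiquitin and ATG8, fell from 171, 208 and 180.1 to 107, 112 and 102 CPM (-0.80, SE 0.09, adjusted p = 6.53e-06). Optn fell by 0.67 and Tax1bp1 by 0.42. Among the HOPS genes, Vps11, a core subunit, fell from 75.9, 82.0 and 66.3 to 52.7, 59.9 and 44.3 CPM (-0.51, SE 0.12, adjusted p = 0.00348). Vps18, its partner in the core, fell by 0.28, and Vps33a and Vps41 did not pass (adjusted p = 0.0517 and 0.0916). Leaving out single libraries ended the calls of Vps18 (without control intact replicate 3, or replicate 1 or 2 at 5 days), Atg16l1 (without the same intact replicate, or replicate 1 or 4 at 5 days), Gabarapl2 (without replicate 2 or 4 at 5 days) and Atg13 (without replicate 4 at 5 days), with adjusted p up to 0.122. The library set term also ended the calls of Atg13 (-0.29, adjusted p = 0.0856), Atg16l1 (-0.35, adjusted p = 0.0762) and Gabarapl2 (-0.49, adjusted p = 0.0805).

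**Figure D2:**
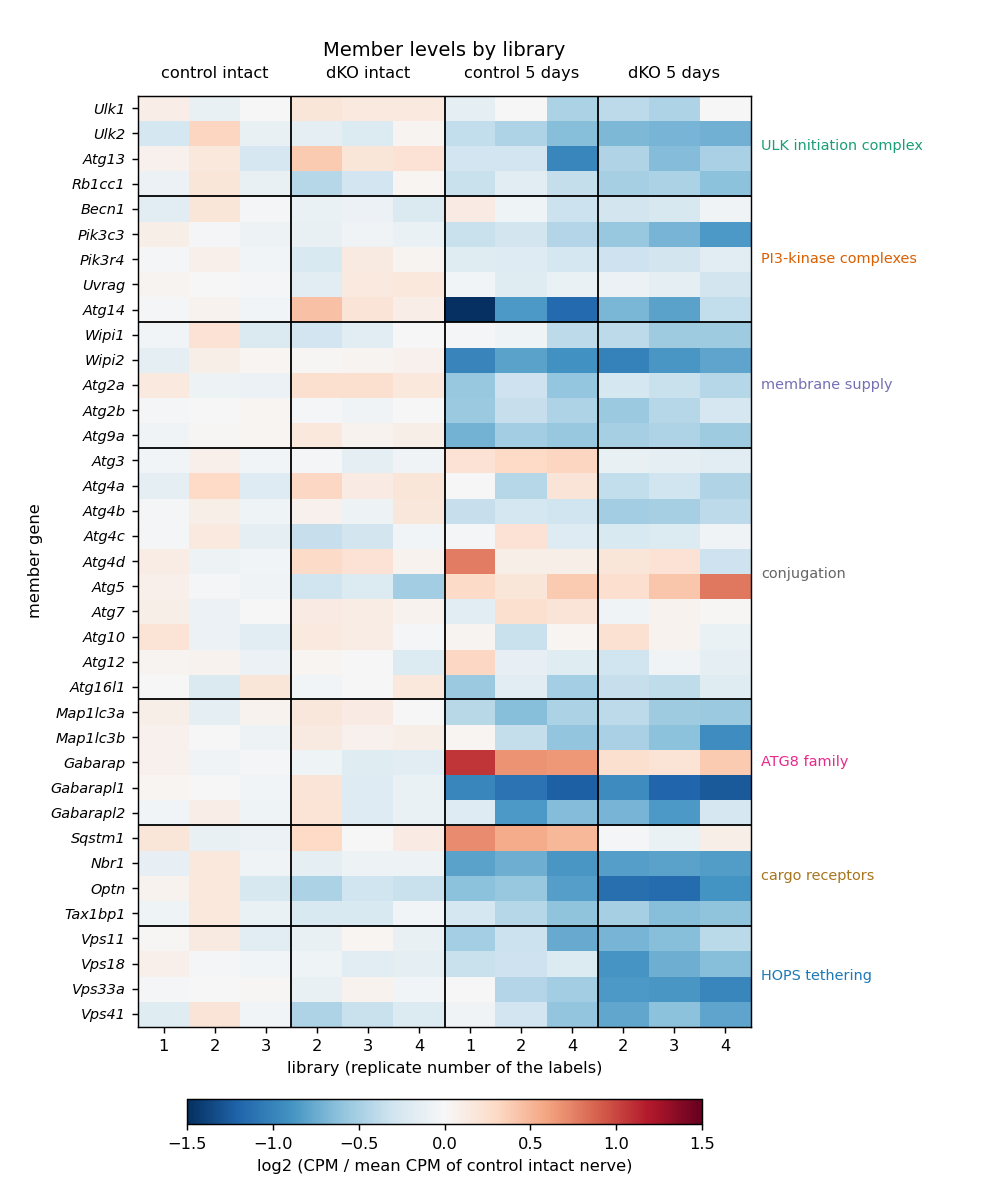
Level of each member in each library as log2 of its CPM over the mean of control intact nerve, with members in rows grouped by role and libraries in columns by group and replicate number. Gabarap and Sqstm1 are raised in the 3 injured control libraries, while Gabarapl1, Wipi2 and Nbr1 are lowered in all 6 injured libraries.

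Injury of dKO nerve was compared in the same way. Here 24 of 37 members were lower, against 22.6% of all models, and 2 were higher, against 22% (median -0.42, against 0.05 over all models). All injured libraries lay below all intact ones in 26 members, against 29.9% of all models, and above them in 2, against 31.1%. All 18 members that fell in control nerve also fell in dKO nerve, where they made up 75% of the falls. Of all models 22.4% fell in control and 22.6% in dKO nerve. How many of those fell in both was not counted, so the sharing is not shown to be particular to the set. The 2 comparisons share no library. Falls called in dKO nerve only were those of Ulk1, Wipi1, Atg4a, Map1lc3b, Vps33a and Vps41, and none of these 6 passed the test of the difference between genotypes. Of the rises, Gabarap was shared, Sqstm1 and Atg3 were called in control nerve only, and Atg5, which forms a complex with ATG12, was called in dKO nerve only. With the term for the second library set 1 rise (Gabarap) and 8 falls (Wipi2, Atg9a, Atg4a, Atg4b, Map1lc3a, Gabarapl1, Nbr1 and Vps18) remained in dKO nerve, while 2153 of all models were lower.

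The member with the smallest p of each role in dKO nerve was as follows. Atg13 had 85.2, 73.6 and 75.3 CPM in intact and 47.5, 41.2 and 46.2 CPM in injured dKO nerve (-0.79, SE 0.16, adjusted p = 0.0013). Pik3c3 fell from 40.0, 41.8 and 40.2 to 29.2, 26.6 and 23.9 CPM (-0.61, SE 0.11, adjusted p = 0.000328). Wipi2 fell from 115, 118 and 119 to 56.6, 62.5 and 66.2 CPM (-0.93, SE 0.10, adjusted p = 2.87e-06). In each of these the injured libraries all lay below the intact ones. Atg14 fell further than Pik3c3 but with a larger p (-0.86, adjusted p = 0.00115). Atg5 rose from 15.8, 17.0 and 13.6 to 23.3, 26.0 and 33.9 CPM (0.84, SE 0.15, adjusted p = 0.000426), with the highest and the lowest value in libraries of replicate number 4. Gabarapl1 fell from 449, 344 and 369 to 204, 173 and 165 CPM (-1.10, SE 0.12, adjusted p = 5.07e-06), the same size of change as in control nerve. Nbr1 fell from 169, 176 and 176 to 105, 107 and 104 CPM (-0.73, SE 0.09, adjusted p = 2.29e-05). Vps33a, the HOPS subunit that binds fusion proteins of the SNARE type, fell from 57.2, 64.1 and 60.1 to 34.0, 33.8 and 31.5 CPM (-0.87, SE 0.12, adjusted p = 5.6e-05). With the library set term several of these changes were smaller and not called: Atg13 was at -0.11 (adjusted p = 0.779), Pik3c3 at -0.48 (adjusted p = 0.0894), Atg14 at -0.84 (adjusted p = 0.0936), Atg5 at 0.69 (adjusted p = 0.0995) and Vps33a at -0.55 (adjusted p = 0.0691). All 4 HOPS genes and all 5 membrane supply genes fell in dKO nerve in the main fit. With the library set term only Wipi2, Atg9a and Vps18 of these stayed called. Vps11 was then at -0.17, Atg2a at -0.41, Wipi1 at 0.01 and Vps41 at 0.03. Wipi1 passed in 3 of 15 alternatives and Vps41 in 8, and Atg2b was lost without dKO replicate 2 at 5 days. Calls for Wipi1, Vps41, Ulk1 and Atg16l1 were each lost without dKO intact replicate 3 or 4 and without dKO replicate 2 at 5 days, those for Wipi1, Ulk1 and Atg16l1 also without replicate 3 at 5 days, and those for Wipi1 and Vps41 without replicate 4 at 5 days (adjusted p up to 0.168). Atg4a was lost without dKO intact replicate 2 or replicate 4 at 5 days, and Gabarapl2 without dKO intact replicate 2 or replicate 2 or 3 at 5 days (adjusted p up to 0.0971). Gabarap rose from 188, 172 and 175 to 230.3, 225 and 256 CPM (0.41, SE 0.12, adjusted p = 0.0108). This call was lost without dKO intact replicate 3 (adjusted p = 0.0511). The estimate was smaller than in control nerve, but the difference between genotypes did not pass the test. With the library set term the rise in dKO nerve was 0.65.

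**Figure D3:**
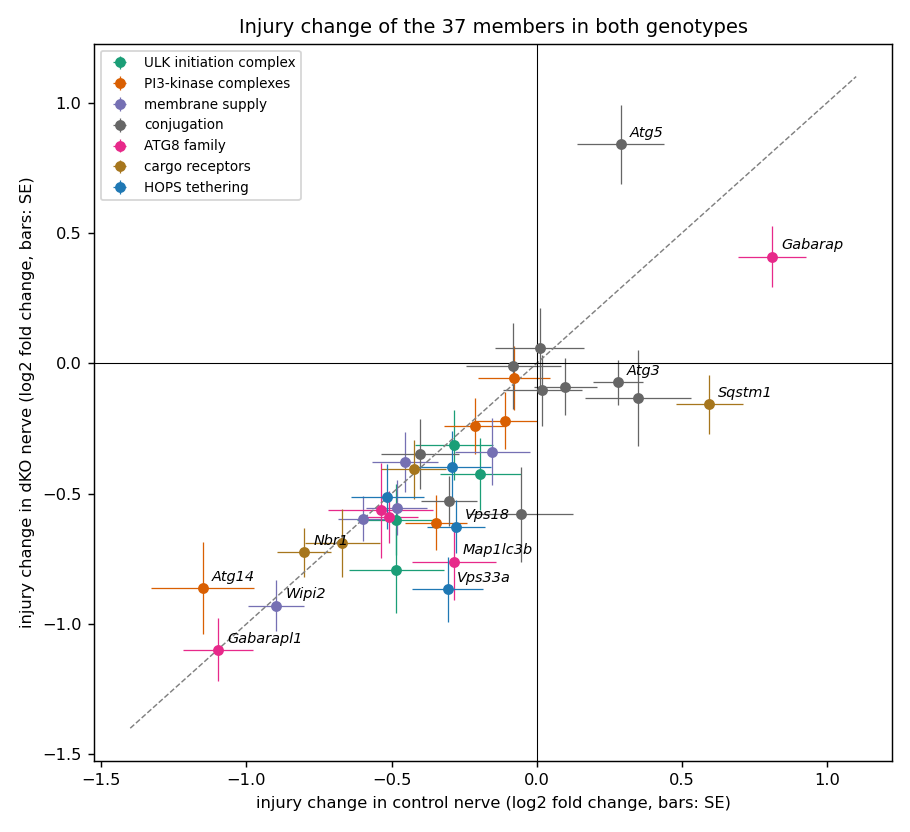
Injury change of each of the 37 members in control nerve (horizontal) and dKO nerve (vertical) as log2 fold change, with SE bars, coloured by role; the dashed line marks equal change. Gabarapl1, Wipi2 and Nbr1 lie near the line at -0.73 or below in both, while Sqstm1 lies at 0.59 in control and -0.16 in dKO nerve.

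Genotype in intact nerve was compared to ask whether the set depended on TFEB and TFE3 without injury. No member passed the edgeR test in either direction (0 of 37), as was the case for nearly all models (0% higher and 0.00447% lower). Member changes ran from -0.37 to 0.27, and 3 members had an unadjusted p under 0.05. These were Optn (-0.37, adjusted p = 0.85), Vps41 (-0.33, adjusted p = 0.85) and Atg5 (-0.34, adjusted p = 0.85). DESeq2 and limma-voom also called 0 members. The groups did not overlap in 5 members that were higher in dKO nerve, against 7.37% of all models, and in 5 that were lower, against 7.18%. Sqstm1 had 416, 341 and 346 CPM in control against 451, 368 and 402 CPM in dKO intact nerve, overlapping ranges (0.15, 95% interval -0.12 to 0.41). For Gabarap the interval was -0.40 to 0.14, and for Map1lc3b -0.24 to 0.43.

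Genotype at 5 days was compared to ask the same after injury. Some members of 5 roles were lower in dKO nerve: 6 of 37 members were lower, against 8.97% of all models, and 0 were higher, against 3.12%. They were the receptor Sqstm1, the HOPS genes Vps33a and Vps18, the ATG8 gene Gabarap, the conjugating enzyme Atg3 and the kinase subunit Pik3c3. None of the 4 ULK complex genes and none of the 5 membrane supply genes passed. In 11 members all dKO libraries lay below all control libraries, against 17.9% of all models, and in 1, Atg14, all lay above, against 12.6%.

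Sqstm1 had 601, 543 and 521 CPM in control against 359.9, 342 and 392 CPM in dKO nerve at 5 days. The lowest control library, which is the one in the second library set, lay above the highest dKO library, and the dKO values lay within the range of the 6 intact libraries. The log2 fold change was -0.61 (SE 0.11, adjusted p = 0.00338), a level 0.657 times that of control. In the annotation, 17.3% of the exonic bases of Sqstm1 overlap Mrnip on the opposite strand; Mrnip counts were 2.44% to 3.73% of those of Sqstm1. Vps33a had 61.6, 45.6 and 43.1 CPM in control against 34.0, 33.8 and 31.5 CPM in dKO (-0.60, SE 0.12, adjusted p = 0.00572). Its control values were spread widely, with replicate 1, the library high in red cell genes, highest, and still did not overlap the dKO values. Vps18 had 37.5, 38.1 and 41.1 CPM against 25.5, 28.4 and 30.2 CPM (-0.47, SE 0.10, adjusted p = 0.00681), with the control library of the second set the highest of all. Vps41, which links HOPS to the lysosome, had 82.0, 69.6 and 56.6 against 49.4, 55.5 and 49.1 CPM, without overlap, and missed the threshold (-0.43, adjusted p = 0.0526). Vps11 had 52.7, 59.9 and 44.3 against 46.2, 48.0 and 56.4 CPM, which overlap (-0.06, adjusted p = 0.79, 95% interval -0.35 to 0.23).

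Gabarap had 410.2, 312 and 306 CPM in control against 230.3, 225 and 256 CPM in dKO nerve at 5 days (-0.53, SE 0.12, adjusted p = 0.00823), again without overlap. Control replicate 1 was highest here too, and the calls of both Vps33a and Gabarap were kept without it. A term for the replicate number ended the Gabarap call. No other ATG8 gene passed: Gabarapl1 (-0.02), Map1lc3a (0.01) and Gabarapl2 (-0.05) lay near 0, and Map1lc3b had 194, 148 and 126 against 136, 124 and 99.5 CPM (-0.38, adjusted p = 0.106). Atg3 had 66.4, 70.5 and 71.4 CPM in control against 53.1, 52.2 and 50.7 CPM in dKO (-0.42, SE 0.09, adjusted p = 0.00548). No other conjugation gene passed. Pik3c3 had 34.3, 35.7 and 31.9 against 29.2, 26.6 and 23.9 CPM (-0.35, SE 0.11, adjusted p = 0.0446), and this call held in 4 of 15 alternatives. It was lost without control replicate 1 or 2 or without dKO replicate 3 or 4 (adjusted p up to 0.126). Atg14 moved the other way, with 7.23, 11.2 and 9.04 CPM in control against 12.7, 11.6 and 15.8 CPM in dKO (0.54, SE 0.18, adjusted p = 0.062). Uvrag, which takes the place of ATG14 in a second PI3-kinase complex, had 41.9, 38.0 and 40.4 against 40.7, 39.0 and 35.6 CPM (-0.06, adjusted p = 0.76), and Wipi1 had 122, 119.7 and 94.8 against 94.9, 86.5 and 86.4 CPM (-0.33, adjusted p = 0.115). Of the receptors besides Sqstm1, Optn was at -0.39 (adjusted p = 0.0668) and Nbr1 and Tax1bp1 did not pass.

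**Figure D4:**
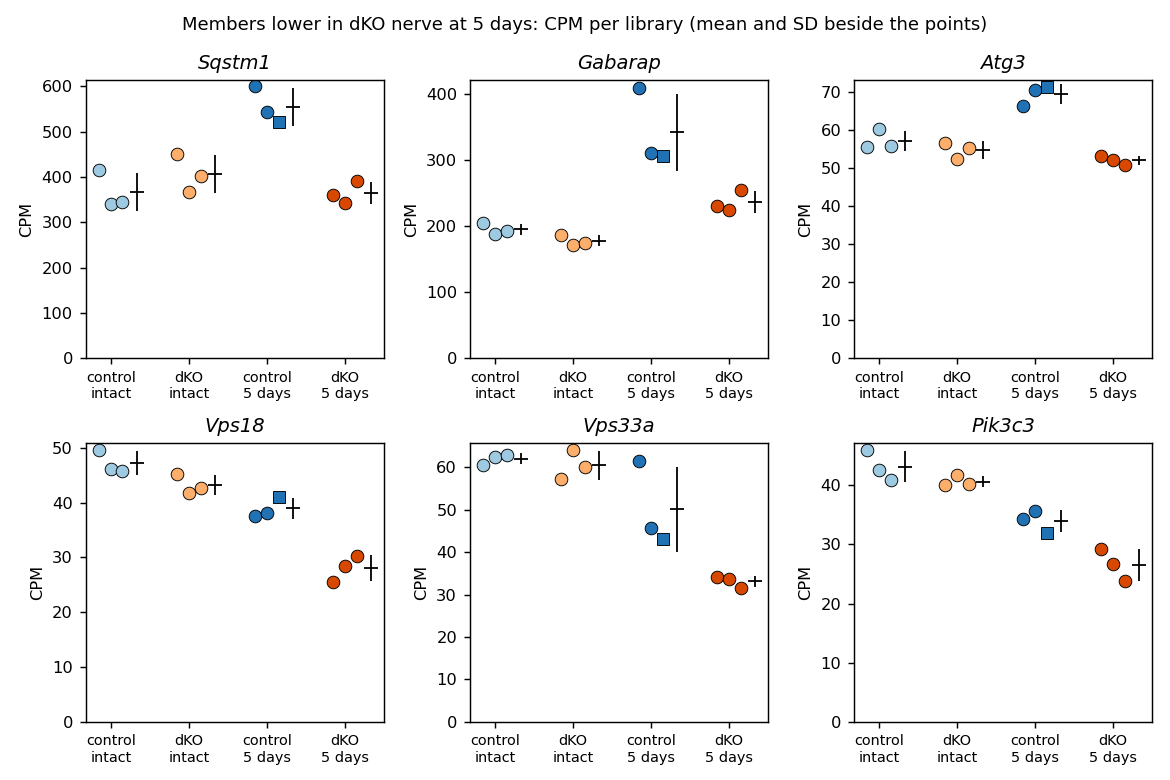
CPM of the 6 members that were lower in dKO nerve at 5 days, 1 point per library (3 per group), with mean and SD beside the points; the square is control replicate 4 at 5 days, the control library of the second set. In each panel all 3 dKO libraries at 5 days lie below all 3 control libraries at 5 days, and Sqstm1 ranges from 521 to 601 CPM in control against from 342 to 392 in dKO nerve.

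With the term for the second library set, 0 members passed at 5 days, while 370 of all 22384 models were still lower. Sqstm1 was at -0.52, Vps18 at -0.55, Atg3 at -0.46, Vps33a at -0.38, Gabarap at -0.37 and Pik3c3 at -0.26. This fit sets the dKO libraries against control replicate 4, which lay above every dKO library at 5 days in each of these 6 members. Their negative sign was therefore given in advance and is no separate test of the genotype calls. Without control replicate 4, 10 members were lower, the same 6 with Wipi1, Map1lc3b, Optn and Vps41. In that fit library set and genotype coincided fully at 5 days. The share of all models called in it was not counted, so the 10 are not shown to be particular to the members. The library set and the genotype cannot be told apart beyond that single control library. Nerve makeup at 5 days also differed between genotypes: the 7 myelin genes summed to between 1071 and 1371 CPM in control against between 3688 and 4698 CPM in dKO nerve, with 7 of 7 higher. Of 7 genes of the repair state of Schwann cells 5 were lower (2347 to 3193 against 1138 to 1267 CPM summed), and 4 of 4 genes of dividing cells were lower (457 to 579 against 168 to 209 CPM). Of 7 genes of Schwann cells at large, 3 were lower and 1 higher in dKO nerve (median log2 fold change -0.29). Macrophage genes summed to similar ranges (1361 to 2193 and 1348 to 1800 CPM), with 1 of 9 lower. Fibroblast genes summed to between 4624 and 6499 CPM in control and between 7657 and 8008 CPM in dKO nerve (1 of 6 higher), and endothelial genes to between 476 and 529 and between 629 and 874 CPM (0 of 6 called). The part of these shifts in the member differences was not tested.

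**Figure D5:**
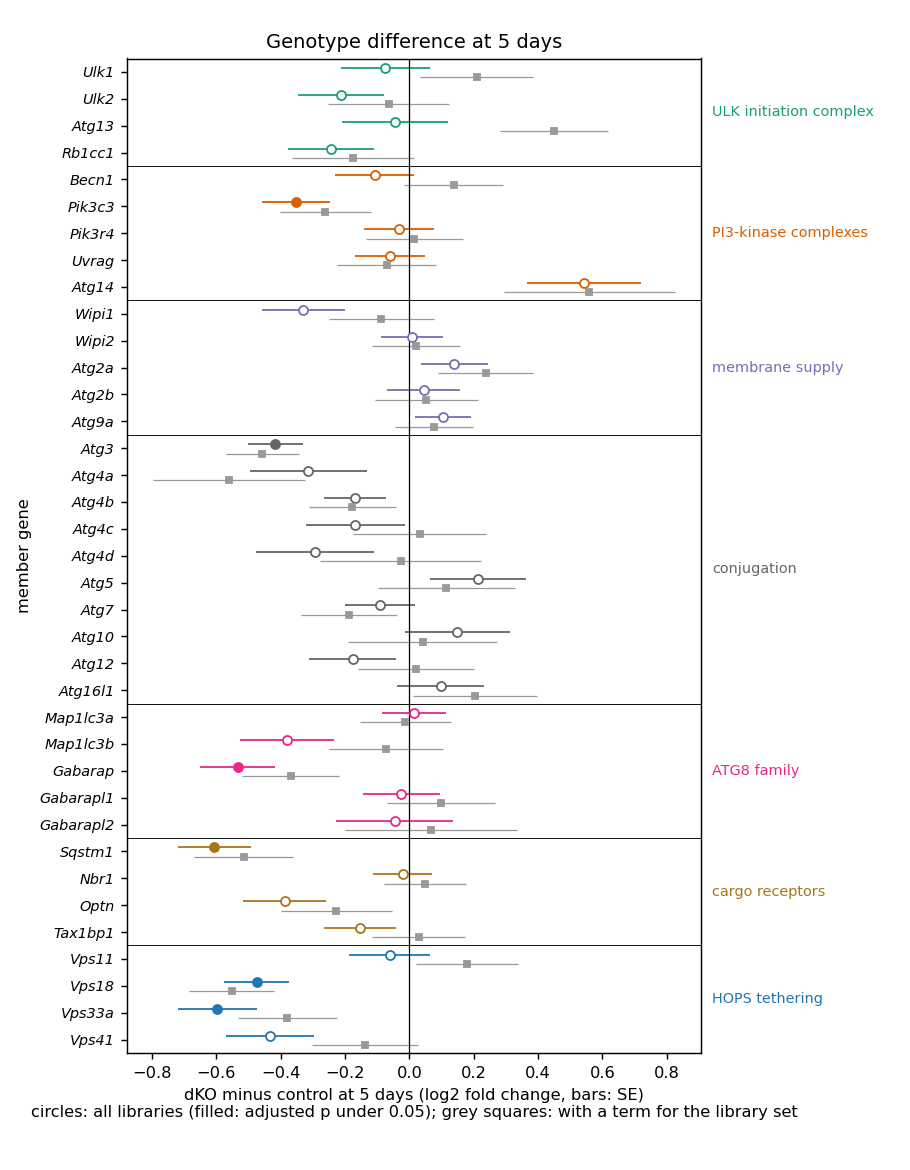
Genotype difference at 5 days of each member (dKO minus control, log2 fold change with SE) by role; circles are the fit over all libraries, filled where the adjusted p was under 0.05, and grey squares the fit with a term for the second library set. The 6 filled circles lie between -0.61 and -0.35, and the grey squares of the same genes lie between -0.55 and -0.26.

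The difference of the injury changes (dKO minus control) was tested to ask which members responded to injury differently in the 2 genotypes. Sqstm1 was the single member to pass: 1 of 37 was lower, against 2.17% of all models, and 0 were higher, against 0.737%. Its injury change was 0.59 in control and -0.16 in dKO nerve, a difference of -0.75 (SE 0.16, adjusted p = 0.0207). The call was lost with the library set term (-0.66, adjusted p = 0.196) and when control intact replicate 3, dKO intact replicate 2 or 4, or dKO replicate 2 or 3 at 5 days was left out (adjusted p up to 0.0882). Next by size were Vps33a (-0.56, adjusted p = 0.111), Atg5 (0.55, adjusted p = 0.207) and Atg4a (-0.52, adjusted p = 0.345). For Atg3, called in control nerve only, the difference was -0.35 (adjusted p = 0.149), and for Gabarap, called in both, it was -0.40 (adjusted p = 0.243). Without control replicate 4 at 5 days, Vps33a was called as well. For Gabarapl1 the difference was 0.00 (95% interval -0.39 to 0.39) and for Nbr1 0.08 (-0.23 to 0.38).

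Summed over all 37 members, the level per library was 3293 ± 128.8 CPM (SD, n = 3) in control and 3261 ± 102 in dKO intact nerve. It was 2924 ± 254 CPM in control against 2433 ± 53.3 in dKO nerve at 5 days. Within these sums Sqstm1 averaged 555 against 365 CPM and Gabarap 343 against 237 CPM. The dKO libraries at 5 days were all of the second library set. The cargo receptors summed to 829 ± 44.6 and 820.5 ± 38.1 CPM in intact nerve, and to 861 ± 64.5 and 646 ± 27.0 at 5 days; Sqstm1 makes up most of the latter sums. The HOPS genes summed to 269 ± 16.7 and 243 ± 8.55 CPM in intact nerve, and to 211 ± 24.5 and 163 ± 6.61 at 5 days. The sums of the conjugation genes ran from 309 ± 6.34 in dKO nerve at 5 days to 343 ± 3.99 in control nerve at 5 days.

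Of the members, 6 (Uvrag, Wipi1, Map1lc3b, Sqstm1, Vps11 and Vps18) are widely reported as direct TFEB targets. Of these, 1 rose and 2 fell with injury in control nerve, and 0 rose and 4 fell in dKO nerve (over all models 24.4% rose and 22.4% fell in control, and 22% and 22.6% in dKO nerve). In intact nerve none differed by genotype. At 5 days 2 were lower in dKO nerve (Sqstm1 and Vps18, against 8.97% of all models). In the difference of injury changes 1 was lower (Sqstm1, against 2.17% of all models). The median of the 6 at 5 days was -0.35, against -0.11 over all 37 members. The library set term sets the dKO libraries against 1 control library. With it Uvrag, Wipi1 and Map1lc3b lay at -0.07, -0.09 and -0.07 and Vps11 at 0.18. Sqstm1 was at -0.52 and Vps18 at -0.55.

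Other genes of the pathway, outside the 37, were tested for 30 of 36 listed. In control nerve 6 rose and 12 fell with injury, against 24.4% and 22.4% of all models, with the smallest p in Calcoco1 (-0.93), Ccpg1 (-0.87), a receptor for turnover of endoplasmic reticulum, and Wdfy3 (-0.73), a large scaffold of selective autophagy. In dKO nerve 4 rose and 17 fell, against 22% and 22.6%, led by Calcoco1 (-0.98), Tecpr1 (-0.78) and Bnip3l, a mitochondrial receptor (-0.78). In intact nerve 0 of 30 differed by genotype. At 5 days 5 were lower and 0 higher in dKO nerve, against 8.97% and 3.12%. They included Vamp8, a SNARE of autophagosome and lysosome fusion (-0.92, adjusted p = 0.000647), Tex264, another receptor for endoplasmic reticulum (-0.57, adjusted p = 0.000974), and Rab7, the late endosome GTPase (-0.57, adjusted p = 0.00527). The other two were Bnip3l (-0.52) and Vps39 (-0.41), a further HOPS subunit. Tex264 (-0.64, adjusted p = 0.0137) and Vamp8 (-0.87, adjusted p = 0.0262) also passed in the difference of injury changes. With the library set term 6 rose and 10 fell in control nerve, while 5325 of all 22384 models rose and 4727 fell. In dKO nerve 2 rose and 6 fell with this term, while 2146 of all models rose and 2153 fell. With that term none of the 30 passed for genotype at 5 days (Vamp8 at -0.49, adjusted p = 0.0601; Tex264 at -0.41, adjusted p = 0.0817; Rab7 at -0.38, adjusted p = 0.281) or in the difference.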

How the data were processed

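PolyA RNA was turned into libraries with the Ion Total RNA-Seq Kit v2, per the labels' protocols, and mm10, DESeq2 and R 4.2.1 are named in the submitters' processing notes; aligner, counting tool, strand and annotation were not given in the sources used here. Whole-number read counts per gene symbol make up the deposited table. The authors' normalized table was not used. Counts were tested with edgeR 4.0.16 (R 4.3.3): filterByExpr (minimum count 10), TMM factors, robust quasi-likelihood fits with 1 mean per group over all 12 libraries, Benjamini-Hochberg adjustment over 22384 models within a comparison, and a threshold of 0.05. Every adjusted p is edgeR's unless named otherwise. CPM use TMM-scaled totals. The script's calls were tested on simulated data. Exonic lengths, positions and overlaps came from GENCODE M21, in which all 37 members matched. Members and lists were chosen with earlier results of these data known, as was the library set. All 37 are reported by role, with values per library for those called between genotypes, the smallest p of each role in an injury comparison and the reported TFEB targets. The labels do not state that replicates are separate animals, so p-values measure the spread between these libraries, which differed beyond counting noise. A single value at 3 against 3 cannot reach an exact permutation p below 0.1, so none was used. Alternatives were DESeq2 1.42.0, limma-voom (limma 3.58.1), other scaling factors, other low-count filters (none, or a mean count of 10 with 1 CPM or more in 3 libraries), fits of the compared groups only, a replicate block, a library set term and leaving out each library.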

Additional observations from a re-analysis of the deposited data

Results flagged for a closer look

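Sqstm1, the gene of the cargo receptor p62, changed differently with injury in the 2 genotypes by the test of the difference itself. It rose by 0.59 on the log2 scale in control nerve and was at -0.16 in dKO nerve, a difference of -0.75 (adjusted p = 0.0207, edgeR). Over 20 alternatives the difference ran from -0.83 to -0.62, and it passed the threshold in 14 of them. With the term for the second library set it was -0.66 (adjusted p = 0.196).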

How the results depend on the processing

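In control nerve, 2 to 3 members were higher and 15 to 21 lower with injury when single libraries were left out, and in dKO nerve 1 to 2 and 18 to 25. For genotype in intact nerve 0 members were called in either direction under every alternative. At 5 days, 0 to 1 were higher and 5 to 10 lower with a library left out (10 without control replicate 4). The difference of injury changes gave 0 higher and 0 to 2 lower. Shares of all models were counted for the main fit and the library set term only, so other counts here have no such share beside them. A term for the library set left 1 member higher and 8 lower with injury in dKO nerve (2 and 24 in the main fit), and 0 lower both at 5 days (6 in the main fit) and in the difference of injury changes (1 in the main fit). With this term Wipi1 (0.0098) and Vps41 (0.0255) turned positive for injury in dKO nerve, neither called; 2 control libraries of the first set and 1 of the second then estimate the set at 5 days. DESeq2's Wald test, upper-quartile factors and the stricter filter each called 1 member higher at 5 days (Atg14). Upper-quartile factors raised the median of all models by 0.14 for injury in dKO nerve, 0.11 at 5 days and 0.13 for the difference, and left 16 members lower with injury in dKO nerve; members whose sign flipped under a scaling were uncalled ones. Deviations of same-numbered intact and injured libraries correlated at -0.18 and 0.01 in control and 0.29, 0.32 and 0.01 in dKO nerve. Differently numbered pairs ran from -0.27 to 0.23 in control and from -0.36 to 0.08 in dKO nerve. Xist had 3 counts in control intact replicate 1 against 10712 in control replicate 1 at 5 days, so that pair did not share an animal. For the other numbers, whether they pair the libraries is not settled. With the replicate block 4 members were higher and 16 lower with injury in control nerve, 2 and 21 in dKO nerve, and 4 were lower at 5 days (Gabarap and Pik3c3 lost). The cause of these changes was not tested. Counting error of a member at the mean count of a group was 0.781% to 6.1%, and the spread between libraries was below it in 13 of 148 combinations of member and group.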
